A study of Homo sapiens with 2 samples.

Results

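The calcitonin peptide family and its receptors were followed through 10 genes, all of which had a row among the 19198 genes used from the deposited values. The 5 peptide genes are CALCA, CALCB, ADM, ADM2 and IAPP, the 2 receptor genes are CALCR and CALCRL, and the 3 genes for receptor activity-modifying proteins are RAMP1, RAMP2 and RAMP3. The set was chosen by the measured FPKM of CALCB, already known to be far higher in A549-NICD1, so that the CALCB difference is described here and not tested. Gene expression had been measured by mRNA sequencing of polyA RNA in 1 library of A549-NICD1 cells, which overexpress NICD1, the intracellular domain that NOTCH1 releases on activation, and 1 library of A549-Vector control cells, to find genes through which NICD1 acts in non-small-cell lung cancer. Both cultures are labelled A549, an established human lung adenocarcinoma line, and the stable lines of the study were made by viral infection and antibiotic selection, NICD1 being carried in a pSin-EF2 lentiviral vector, with whether a line is 1 clone not given in the sources used here. With 1 library per condition no difference has a replicate check, no p-value is given, and what NICD1 did cannot be told apart from whatever else set the 2 cultures apart.

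Peptides of this family are cut from larger precursors and released from the cell. CALCA gives calcitonin or α-CGRP by alternative splicing, CALCB gives β-CGRP, ADM gives adrenomedullin, ADM2 gives intermedin and IAPP gives amylin. CGRP, the calcitonin gene-related peptide, is a vasodilator made by sensory nerves and, in the lung, by neuroendocrine cells of the airway. The receptor CALCRL needs a RAMP partner to reach the cell surface, and the partner sets its ligand: with RAMP1 it forms the CGRP receptor and with RAMP2 or RAMP3 the adrenomedullin receptors. CALCR is the calcitonin receptor and binds amylin when paired with a RAMP. All of these receptors act chiefly through Gs and cyclic AMP.

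CALCA and CALCB are close paralogs, and the results turn on telling them apart. Of coding exons 2 and 4, which have equal lengths in both genes, exon 4 is the more alike. It holds the CGRP sequence and is shown for both genes. Exon 3 has 138 coding bases in CALCB and 141 in CALCA and was not compared. Exons are numbered within the transcripts named here. In GENCODE 29 on GRCh38, the coding part of exon 4 lies at chr11:15077286-15077442 on the plus strand for CALCB (transcript CALCB-201) and at chr11:14967698-14967854 on the minus strand for CALCA (transcript CALCA-202). Each is written 5′ to 3′ on its own gene's strand, and capitals mark the bases at which the genes differ.
CALCB exon 4: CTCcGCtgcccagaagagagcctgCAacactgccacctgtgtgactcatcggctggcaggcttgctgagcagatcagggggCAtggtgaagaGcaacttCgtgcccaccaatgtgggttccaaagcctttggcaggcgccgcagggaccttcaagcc
CALCA exon 4: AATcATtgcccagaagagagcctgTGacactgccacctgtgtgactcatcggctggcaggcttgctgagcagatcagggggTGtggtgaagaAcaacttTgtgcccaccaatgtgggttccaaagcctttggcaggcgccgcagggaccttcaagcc
The 157 coding bases differ at 11 positions, an identity of 93.0%, and 57 of them in a row are the same. In exon 2 the 86 coding bases differ at 10 positions, an identity of 88.4%. Over the whole transcripts the longest stretch in common was 64 bases. None of the 971 windows of 100 bases along CALCB-201, or of the 817 along CALCA-202, occurred in a transcript of another gene. A read of 100 bases from either transcript therefore has no exact match in another gene's transcripts, while the read length is not given in the sources used here.

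Values are in FPKM, that is, reads scaled to gene length and to the depth of the library. The steps between the values gave depths of 48528434 reads for A549-NICD1 and 48602848 for A549-Vector, and whole reads for 17071 of 17178 genes above 0. Reads of a gene are the smallest whole numbers that give both of its values, so that intervals are the widest the values allow, and they cover counting error only. Folds are A549-NICD1 over A549-Vector after dividing A549-NICD1 by 0.959, the trimmed mean ratio of 12058 genes. NOTCH1 itself was at 5.40 FPKM in A549-Vector and at 2865 FPKM in A549-NICD1, in the direction of the labels. The labelled cell line was less plain from its markers. A level of 1 FPKM or more was reached by 7 of 17 A549 markers in A549-Vector and by 6 in A549-NICD1, and KRT7, KRT19, FGA and FGB were listed at 0 in both. Of 10 markers of HEK293, a kidney line, each library had 7 at 1 FPKM or more, among them CDKN2A at 138 FPKM in A549-NICD1 and 139 FPKM in A549-Vector. The part of this in the results below was not tested.

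CALCB was the most abundant family gene in both libraries and the only one of the 10 to differ by more than 2-fold among those at 0.1 FPKM or more, a difference that 2.43% of all genes at that level showed upwards and 0.944% downwards. It was at 22.7 FPKM in A549-Vector (1138 reads) and at 286 FPKM in A549-NICD1 (14324 reads). The A549-NICD1 library was 13.2-fold higher, with a 95% Clopper-Pearson interval from counting of 12.4 to 13.98. Among all genes CALCB ranked 3815 by FPKM in A549-Vector and 138 in A549-NICD1, where 99.3% of genes were at or below its level. It took 0.00234% of all reads in A549-Vector and 0.0295% in A549-NICD1. Of all genes, 46.6% in A549-Vector and 53.6% in A549-NICD1 were at or below ADM, and the plot of the 10 genes shows ADM and RAMP2 near each other and the rest of the family beneath them.

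**Figure D1:**
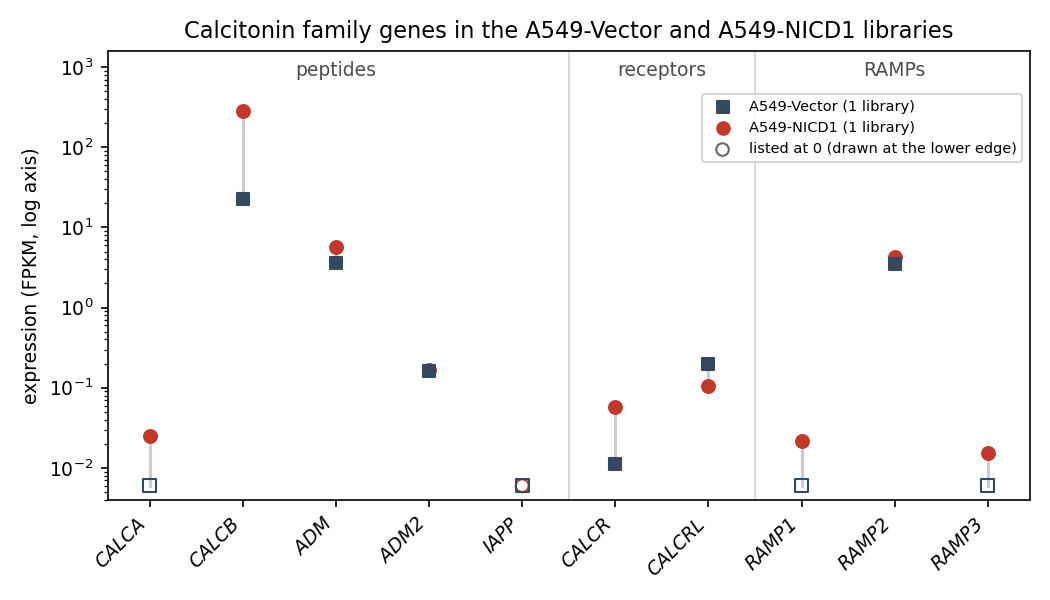
Expression of the 10 family genes in FPKM on a log axis, with squares for the A549-Vector library, circles for the A549-NICD1 library and open symbols for genes listed at 0. CALCB stands at 22.7 and 286 FPKM, ADM and RAMP2 lie between 3.46 and 5.62 FPKM, and the other 7 genes are at 0.1999 FPKM or less in both libraries.

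Its sister gene CALCA was all but absent. CALCA was listed at 0 in A549-Vector and at 0.0248 FPKM in A549-NICD1, which is 1 read. A count of 0 at its length of 830 bases allows up to 0.0744 FPKM (3 reads), so no fold is given. In A549-NICD1 the 14324 reads of CALCB thus stood beside a single read of CALCA. Each gene has 1 summed value, which leaves the exons behind it unseen.

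ADM (chr11:10305073-10307397, RefSeq GRCh38.p14, as for the positions that follow) encodes the vasodilator adrenomedullin and came next among the peptide genes. It was at 3.57 FPKM in A549-Vector and at 5.62 FPKM in A549-NICD1, with 138 and 217 reads at the least. The ratio was 1.64 (interval 1.32 to 2.05), below 2-fold. CALCB stood at 6.36 times the ADM level in A549-Vector and at 50.9 times in A549-NICD1. ADM2, the gene for intermedin, was at 0.163 FPKM in A549-Vector and at 0.169 FPKM in A549-NICD1, with 32 and 33 reads, and its ratio of 1.08 (interval 0.642 to 1.81) leaves a difference in either direction within counting error. IAPP, the amylin gene, was listed at 0 in both libraries. Of the summed FPKM of the 5 peptide genes, CALCB made up 85.9% in A549-Vector and 98.0% in A549-NICD1.

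The receptors were far below their ligand CALCB in both libraries. CALCRL (chr2:187341964-187448252), the shared receptor of CGRP and adrenomedullin, was at 0.1999 FPKM in A549-Vector and at 0.105 FPKM in A549-NICD1, with 59 and 31 reads. Its ratio of 0.549 had an interval of 0.343 to 0.862, so that A549-NICD1 was the lower library beyond counting error. On the scale of FPKM plus 0.1, which is used for all calls, its log2 fold change was -0.52 and did not pass 2-fold. CALCR, the calcitonin receptor, had 1 and 5 reads in A549-Vector and A549-NICD1, or 0.0113 and 0.0568 FPKM, and its ratio of 5.22 had an interval of 0.585 to 247. The 2 receptor genes together came to 0.211 FPKM in A549-Vector and at 0.162 FPKM in A549-NICD1, against 22.7 and 286 FPKM for the ligand gene CALCB.

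Of the RAMP genes, whose products escort the receptors and set their ligands, RAMP2 alone had more than 1 read in a library. RAMP2 (chr17:42761227-42763041) was at 3.46 FPKM in A549-Vector and at 4.23 FPKM in A549-NICD1, with 132 and 161 reads. The log2 ratio was 0.35 with an interval of 0.01 to 0.69, and without scaling the interval ran from -0.05 to 0.63 and held 0. Of the 759 windows of 100 bases along its transcript RAMP2-205, 18.3% also occurred in RAMP2-AS1, an antisense gene that overlaps it, and whether the counting used strand is not given in the sources used here. The study calls the sequencing strand-specific, while the kit in the labels is named only as NEBNext Ultra RNA, so that reads of the overlap are uncertain. RAMP1, the partner that makes CALCRL a CGRP receptor, was listed at 0 in A549-Vector and at 0.0218 FPKM in A549-NICD1, which is 1 read. RAMP3 had the same reads, at 0 and 0.0153 FPKM. At 0 reads up to 0.0654 FPKM of RAMP1 and 0.0459 FPKM of RAMP3 would have been possible in A549-Vector. The RAMP2 level was 17.3 times that of CALCRL in A549-Vector and 40.2 times in A549-NICD1.

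**Figure D2:**
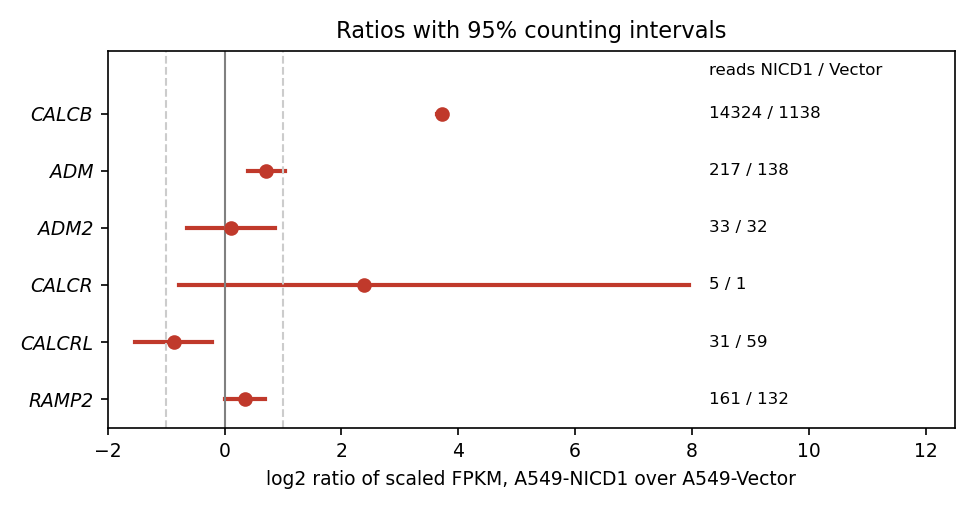
Log2 ratio of scaled FPKM, A549-NICD1 over A549-Vector, for the 6 family genes with more than 3 reads in a library, with bars for the 95% Clopper-Pearson intervals of the reads printed at the right and dashed lines at 2-fold. CALCB lies at 3.72 with a bar shorter than its point, the ADM bar runs from 0.40 to 1.03, and the CALCR bar spans 0 with 5 and 1 reads.

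The order of the levels, which FPKM allows since it is per length, was alike at the top and could not be settled at the bottom. In A549-Vector it ran CALCB, ADM, RAMP2, CALCRL, ADM2 and CALCR. The exact Poisson intervals of ADM (3.0005 to 4.22 FPKM) and RAMP2 (2.89 to 4.10 FPKM) overlapped there, as did those of CALCRL (0.152 to 0.258 FPKM) and ADM2 (0.112 to 0.231 FPKM). In A549-NICD1 ADM2 stood above CALCRL, with overlapping intervals of 0.116 to 0.237 FPKM and 0.0715 to 0.149 FPKM. The interval of ADM in A549-NICD1 (4.90 to 6.42 FPKM) overlapped that of RAMP2 (3.60 to 4.93 FPKM) at its edge. CALCB was clear of all others in both, at 21.4 to 24.1 FPKM in A549-Vector and at 282 to 291 FPKM in A549-NICD1.

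The family was then set against all genes. Among 15141 genes at 0.1 FPKM or more in a library, 368 were more than 2-fold higher in A549-NICD1 on the scale of FPKM plus 0.1, or 2.43%, and 143 were more than 2-fold lower, or 0.944%. Only 5 of the 10 family genes reached 0.1 FPKM in a library, namely CALCB, ADM, ADM2, CALCRL and RAMP2. Of these, 1 was more than 2-fold higher and 0 were more than 2-fold lower, and nothing is read from this share since the CALCB difference chose the list. CALCB was also past 4-fold higher, as were 0.31% of all genes, and 0 of the 5 were past 4-fold lower, as were 0.0462% of all genes. The 5 log2 fold changes were 3.71 for CALCB, 0.70 for ADM, 0.34 for RAMP2, 0.07 for ADM2 and -0.52 for CALCRL. Their median was 0.34 beside 0.00 over all 15141 genes, and nothing is read from it either, since it includes CALCB. By this measure ADM came at place 675, RAMP2 at 1674, ADM2 at 5737 and CALCRL at 14267 from the top.

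**Figure D3:**
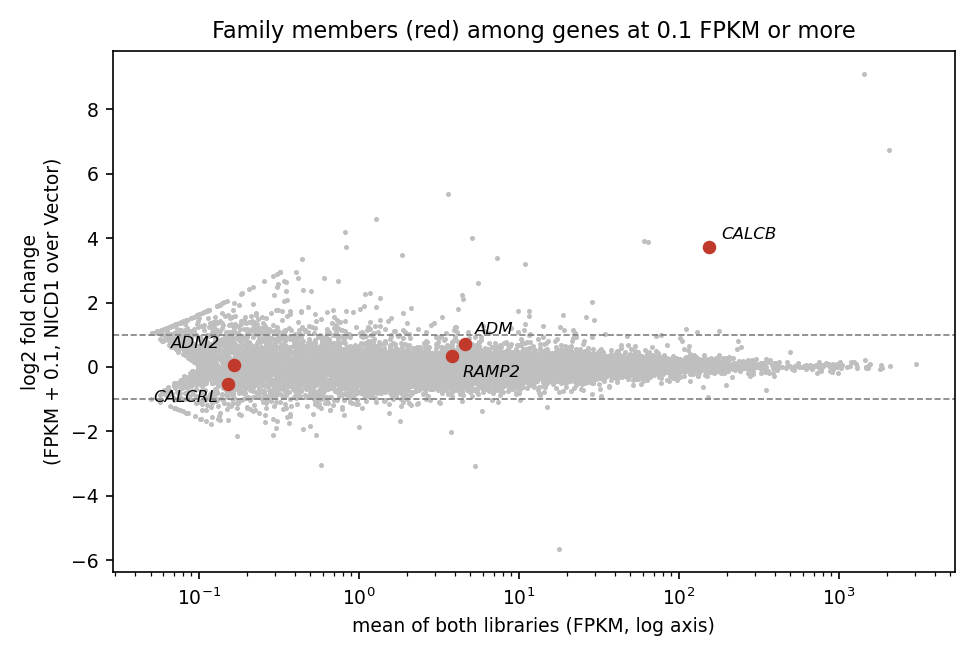
Log2 fold change on the scale of FPKM plus 0.1 against the mean of both libraries in FPKM on a log axis, with 1 grey point for each of 15141 genes at 0.1 FPKM or more in a library, the 5 family genes among them in red and dashed lines at 2-fold. CALCB sits at 3.71 among genes of high level, while ADM, RAMP2, ADM2 and CALCRL lie between the lines.

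CALCB came at place 10 of the 15141 genes by log2 fold change, and at place 5 of the 12295 genes that had 1 FPKM or more in A549-Vector. The 4 genes above it in that set were NOTCH1, RFC4, HES5 and ANKRD1. RFC4, a subunit of the clamp loader of DNA replication, was at 39.5 FPKM in A549-Vector and at 4075 FPKM in A549-NICD1, above NOTCH1 itself, and its part in the values of the family was not tested. The 5 genes whose log2 fold change was nearest to that of CALCB, a likeness over 2 libraries only, were ANKRD1, HES5, BOP1, MYOM2 and NGFR. ANKRD1, an ankyrin repeat protein of muscle and a YAP target, was at 8.40 and 120 FPKM and differed from CALCB by 0.17 on the log2 scale. HES5, a repressor directly downstream of Notch, was at 7.78 and 115 FPKM and differed by 0.21. BOP1, a ribosome biogenesis factor, was at 1.24 and 13.3 FPKM, and MYOM2, a sarcomere protein, at 2.16 and 19.7 FPKM. NGFR, the low-affinity neurotrophin receptor, was the farthest of the 5 at 1.55 and 9.56 FPKM, with a difference of 1.10. Of CALCB and these 5 nearest genes, CALCB had the highest FPKM in both libraries.

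The gene next to CALCB on the chromosome was also higher in A549-NICD1. In RefSeq on GRCh38.p14 CALCB lies at chr11:15073593-15078637. INSC, an adaptor that orients the mitotic spindle, begins 32.8 kb beyond its end and was at 0.415 FPKM in A549-Vector and at 1.73 FPKM in A549-NICD1, with 58 and 242 reads. Its ratio was 4.36 (interval 3.26 to 5.91), and its log2 fold change of 1.89 came at place 19 of the 14703 genes at 0.1 FPKM or more in A549-Vector. On the other side CALCA, at a distance of 101 kb, had 0 and 1 reads, as given above. CYP2R1, a vitamin D hydroxylase, had a ratio of 0.802 (interval 0.703 to 0.914) and PDE3B, a cyclic nucleotide phosphodiesterase, one of 1.28 (interval 1.21 to 1.35). Farther out, SOX6 had a ratio of 0.983 (interval 0.882 to 1.09) and C11orf58 one of 1.10 (interval 1.07 to 1.14). Of the 6 neighbours, INSC alone passed 2-fold, and whether its level moves with that of CALCB cannot be seen from 2 libraries.

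**Figure D4:**
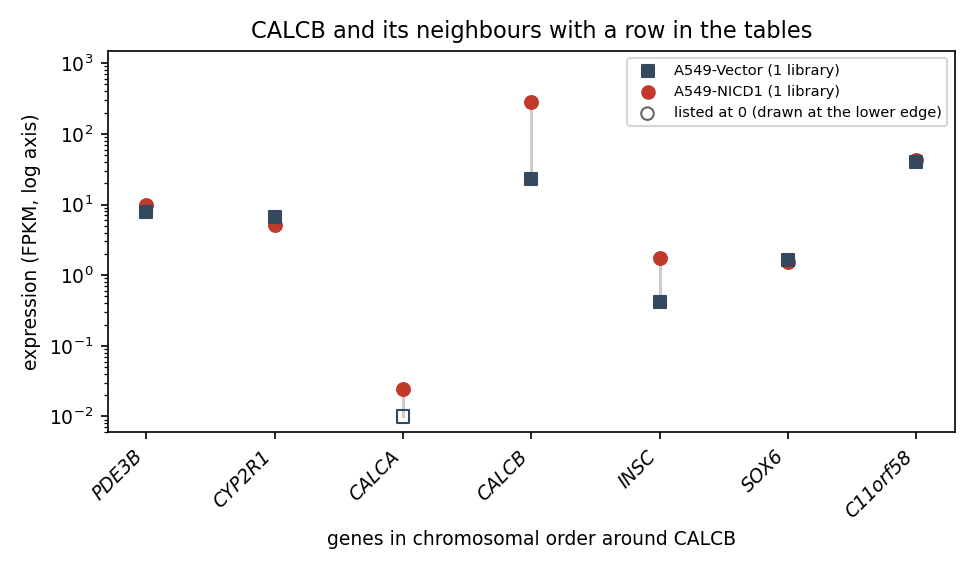
Expression in FPKM on a log axis of CALCB and the nearest 3 genes on each side that have a row in the tables, in chromosomal order, with squares for A549-Vector, circles for A549-NICD1 and an open symbol for a gene listed at 0. CALCB (22.7 and 286 FPKM) and INSC (0.415 and 1.73 FPKM) are set apart, and the pairs of points of PDE3B, CYP2R1, SOX6 and C11orf58 nearly meet.

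Genes that process and package such peptides ranged from well expressed to near 0 in both libraries. Of 12 listed genes 10 reached 0.1 FPKM, of which 1 was more than 2-fold higher in A549-NICD1 and 0 were more than 2-fold lower, beside 2.43% and 0.944% of all genes, with a median log2 fold change of 0.27. The 3 highest were PCSK1N, a convertase inhibitor, at 50.6 FPKM in A549-Vector and at 49.4 FPKM in A549-NICD1, CPE, the carboxypeptidase that trims cut peptides, at 50.7 and 41.9 FPKM, and the convertase FURIN at 35.1 and 47.9 FPKM. PAM, which adds the amide that CGRP and adrenomedullin carry, was at 20.1 and 18.2 FPKM. By contrast the convertases of the regulated pathway were low, PCSK1 at 0.0494 and 0.0701 FPKM and PCSK2 at 0.140 and 0.267 FPKM. Granule proteins were low too, CHGA at 0.385 and 0.284 FPKM, VGF at 0.427 and 0.347 FPKM and SCG2 at 0.0320 and 0.0481 FPKM. PAM, PCSK1, PCSK2, CHGA, VGF and SCG2 were picked out for their roles after their values were seen. SCG3, a granule protein, was the gene past 2-fold, at 0.558 and 1.18 FPKM with a log2 fold change of 1.02. It was at 0.96 without scaling.

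Of 6 genes listed as degrading or scavenging peptides, all reached 0.1 FPKM in a library. Of these, 1 was more than 2-fold higher and 0 were more than 2-fold lower, beside 2.43% and 0.944% of all genes. Their median log2 fold change was -0.19, and whether each acts on the peptides of this family was not tested. The higher one was ACKR3, an atypical receptor that binds and removes adrenomedullin and the chemokine CXCL12, with 1 and 33 reads in A549-Vector and A549-NICD1. Its levels were 0.00978 and 0.323 FPKM, and its ratio of 34.5 had an interval of 5.77 to 1403. It reached 0.1 FPKM only in A549-NICD1, where it was higher, so that passing the filter fixed its direction. Of the 6 genes, 2 were higher and 4 lower in A549-NICD1. GPR182 went the other way from ACKR3, with 22 and 7 reads in A549-Vector and A549-NICD1 and a ratio of 0.332 (interval 0.12 to 0.806). Its log2 fold change of -0.99 fell short of 2-fold, and it reached 0.1 FPKM only in A549-Vector. DPP4 was lower too, at 1.54 and 0.898 FPKM with 146 and 85 reads and a ratio of 0.608. The 3 highest of the list were peptidases. The insulin-degrading enzyme IDE was at 23.5 and 22.6 FPKM, the endothelin-converting enzyme ECE1 at 21.1 and 19.2 FPKM, and neprilysin (MME) at 1.73 and 1.33 FPKM, with a ratio of 0.803 (interval 0.699 to 0.923).

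The median log2 fold change of genes that carry the signal from these receptors was close to that of all genes. Of 32 listed genes for G proteins, adenylyl cyclases, protein kinase A, CREB co-activators, arrestins and receptor kinases, 29 reached 0.1 FPKM, of which 20 were lower and 9 higher in A549-NICD1. None (0) were past 2-fold in either direction, beside 2.43% and 0.944% of all genes, shares so small that 0 of 29 says little of the list. Their log2 fold changes ran from -0.73 to 0.31 with a median of -0.05, beside 0.00 over all 15141 genes. How many of all genes were lower was not counted, so nothing is read from 20 of 29. GNAS, the Gs subunit, was at 384 FPKM in A549-Vector and at 341 FPKM in A549-NICD1. PRKAR1A, a regulatory subunit of protein kinase A, was at 70.4 and 61.5 FPKM, and ARRB2, an arrestin, at 58.2 and 53.7 FPKM. The lowest log2 fold change was that of the arrestin ARRB1, at 6.65 and 3.81 FPKM with a ratio of 0.597 (interval 0.559 to 0.638). GNAS was thus far above the receptor CALCRL, at 0.1999 and 0.105 FPKM, in each library.

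Of 16 genes listed as responsive to cyclic AMP and CREB, 15 reached 0.1 FPKM, of which 3 were more than 2-fold higher in A549-NICD1 and 0 were more than 2-fold lower, beside 2.43% and 0.944% of all genes, with a median log2 fold change of 0.41. The 3 were the transcription factors ATF3 and FOS and the phosphatase DUSP1. ATF3 was at 11.7 FPKM in A549-Vector and at 45.4 FPKM in A549-NICD1, DUSP1 at 13.8 and 38.9 FPKM, and FOS at 1.04 and 2.27 FPKM. These genes also answer to stress and growth factor signals, and such immediate early genes were already known to be higher in this library when the list was written. The clock gene PER1, another of the 3 highest, was at 16.7 and 14.9 FPKM. Of the 15 genes, 10 were higher and 5 lower in A549-NICD1.

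Other receptors of the secretin family, to which CALCR and CALCRL belong, were low as well. Of 13 listed 9 reached 0.1 FPKM in a library, and 0 were past 2-fold in either direction, beside 2.43% and 0.944% of all genes. Of these 9, SCTR, VIPR2, GCGR, CRHR1 and CRHR2 reached 0.1 FPKM only in A549-Vector, so the filter fixed them as lower in A549-NICD1. Nothing is read from the median log2 fold change of -0.39, which is that of CRHR2 with 7 reads in A549-Vector and 4 in A549-NICD1. The highest by the mean of both libraries were VIPR1, a receptor for vasoactive intestinal peptide, at 2.32 FPKM in A549-Vector and at 2.69 FPKM in A549-NICD1, the PACAP receptor ADCYAP1R1 at 2.49 and 1.98 FPKM, and the incretin receptor GIPR at 1.88 and 1.11 FPKM. PTH1R, the parathyroid hormone receptor, was below GIPR in A549-Vector at 1.05 FPKM and above it in A549-NICD1 at 1.66 FPKM, with a ratio of 1.65 (interval 1.29 to 2.13). VIPR1, ADCYAP1R1, GIPR and PTH1R were above the CALCRL level in the same library, and the other receptors of the list were below it in both.

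ADM is also a known hypoxia gene, so that other hypoxia genes were set beside it. Of 13 listed 12 reached 0.1 FPKM, 0 were past 2-fold in either direction beside 2.43% and 0.944% of all genes, and 6 were higher and 6 lower in A549-NICD1, with a median log2 fold change of -0.05. The glycolytic enzymes LDHA and PGK1 were at 352 and 157 FPKM in A549-Vector and at 299 and 138 FPKM in A549-NICD1, and BNIP3 was at 35.1 and 26.2 FPKM. The glucose transporter SLC2A1 had a ratio of 1.75 (interval 1.67 to 1.85) and VEGFA, the vascular growth factor, one of 1.34 (interval 1.26 to 1.43), beside 1.64 for ADM. Genes of the list thus lay on both sides of 0.

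**Figure D5:**
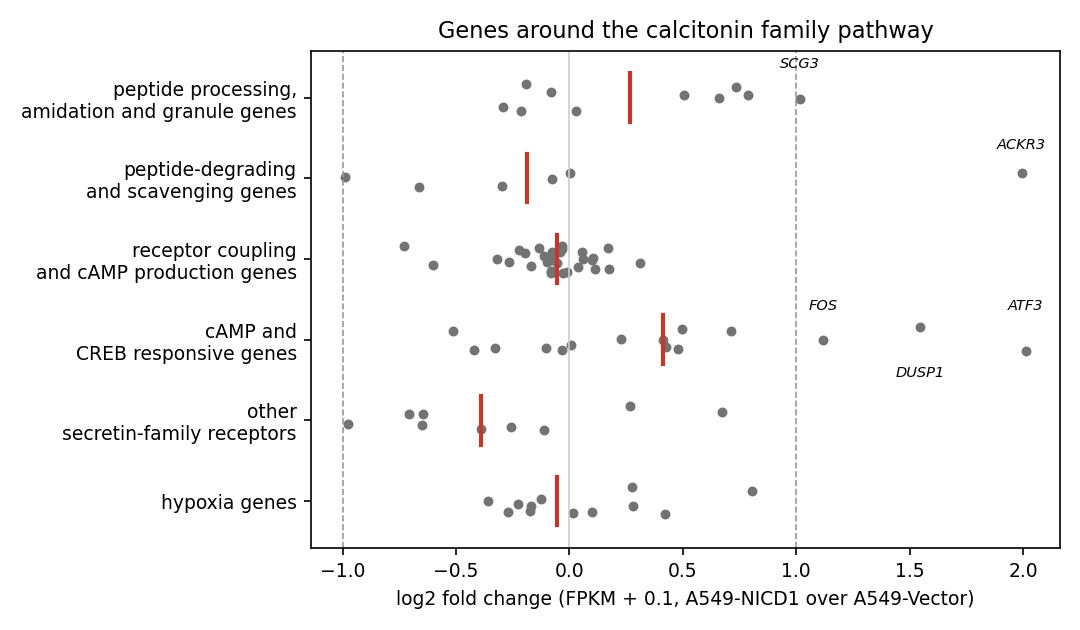
Log2 fold change on the scale of FPKM plus 0.1 of each listed gene at 0.1 FPKM or more in a library, with 1 row per list, red bars for the medians and dashed lines at 2-fold, and the height of a point within its row without meaning. SCG3, ACKR3, FOS, DUSP1 and ATF3 are the genes to the right of the upper line, and the 29 genes for receptor coupling lie between -0.73 and 0.31.

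Markers of cell types that are known to make or answer these peptides were checked in the same way. Of 10 neuroendocrine markers, 4 were at 1 FPKM or more in each library, summed to 183 FPKM in A549-Vector and at 159 FPKM in A549-NICD1, mostly from UCHL1 at 169 and 144 FPKM. Of the lower ones CHGB was at 0.419 and 0.761 FPKM and SCG3, as given above, at 0.558 and 1.18 FPKM. The defining factor NEUROD1 was listed at 0 in both. None of 8 endothelial markers reached 1 FPKM in either library, and they summed to 1.15 and 1.17 FPKM, with TEK at 0.0539 and 0.270 FPKM and KDR at 0.292 and 0.146 FPKM. The summed A549 markers were at 180 FPKM in A549-Vector and at 327 FPKM in A549-NICD1, of which the keratins KRT8 (85.9 and 176 FPKM) and KRT18 (73.1 and 130 FPKM) made up most. The summed HEK293 markers were at 264 and 244 FPKM. By the median, the 17 A549 markers were at 0.584 FPKM in A549-Vector and at 0.553 FPKM in A549-NICD1. The median of the 10 HEK293 markers was 14.5 and 11.2 FPKM. The part of these cell types in the CALCB difference was not tested.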

How the data were processed

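PolyA RNA of A549-NICD1 and A549-Vector cells was sequenced, with 1 library per group. The authors deposited 1 value per gene and library, read here from the values as FPKM. The submitters' processing notes name Bowtie2, HTSeq and hg38, and the study calls the sequencing strand-specific, while versions, annotation and the strand setting of the counting are not given in the sources used here. Each table held 19225 rows, of which 27 carried a date number in place of a gene symbol and were dropped. The ratio of depths was taken from exact ratios of low values. The depth was the largest at which lengths were whole for at least 80% of 80 genes (73 of them, against 34 at 2 times that depth). In simulated data of 17071 genes this gave the right ratio of reads for 99.8% of genes and the right reads for 85.2%.

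A549-NICD1 was divided by 0.959, a trimmed mean of log ratios over genes at 1 FPKM or more in both libraries (30% of ratios and 5% of levels trimmed at each end). Calls used log2(FPKM + 0.1), which understates changes of low genes, more than 2-fold, in genes at 0.1 FPKM or more in a library. Ratios and 95% Clopper-Pearson intervals used no pseudocount. No molecular identifiers are named in the sources used here, so reads need not be separate molecules, and intervals and floors (3 reads) cover counting error only. Genes named were the 10 members, NOTCH1, the 3 nearest genes on each side of CALCB, the 5 nearest in fold change, and, of each list, those past 2-fold and the 3 highest by mean FPKM. RFC4, ARRB1, PTH1R, SLC2A1, VEGFA, PAM, PCSK1, PCSK2, CHGA, VGF, SCG2, GPR182, DPP4 and single marker genes were named after their values were seen. So were SCTR, VIPR2, GCGR, CRHR1 and CRHR2. The members and lists were chosen with earlier results of these data known. CRTC1 stood in both the coupling and the CREB list. Alternatives changed pseudocount, scaling, filter and threshold. Python 3.11.15, numpy 2.4.6, pandas 2.3.3 and scipy 1.17.1 were used.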

Additional observations from a re-analysis of the deposited data

How the results depend on the processing

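No paired analysis was possible because each group had 1 library. CALCB kept a log2 fold change of 3.65 to 3.72 in all settings run, and the number of family genes past 2-fold stayed at 1 higher and 0 lower. Counts over all genes depended on how low values were handled. Against 368 higher and 143 lower, a pseudocount of 0.01 FPKM gave 626 and 310, recovered reads plus 0.5 gave 626 and 319, a mean of at least 1 FPKM gave 80 and 26, and both a pseudocount of 1 FPKM and a 4-fold threshold gave 47 and 7. With a pseudocount of 1 FPKM or a mean of at least 1 FPKM, 0 processing genes and 0 degrading or scavenging genes were past 2-fold higher against 1 each, and without scaling 0 processing genes were. Among degrading or scavenging genes, 1 was past 2-fold lower against 0 with a pseudocount of 0.01 FPKM, without scaling and with recovered reads, and 3 other secretin-family receptors were, against 0, with a pseudocount of 0.01 FPKM and with recovered reads. CALCRL moved from -0.52 to -0.11 with a pseudocount of 1 FPKM, and the other 29 values of family genes stayed within their counting intervals. Of 40 other genes for which the settings were run, INSC was at 0.99, ACKR3 at 0.41, FOS at 0.73 and SCG3 at 0.52 with a pseudocount of 1 FPKM. Depth limits what can be said of CALCA, CALCR, IAPP, RAMP1 and RAMP3, with 5 reads or fewer in each library.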
